A study of Mus musculus with 6 samples.

Results

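The genes described here form the extracellular lysophosphatidic acid (LPA) axis of the mouse heart: Enpp2, which encodes the LPA-producing enzyme autotaxin, the LPA receptor genes Lpar1, Lpar2, Lpar3, Lpar4 and Lpar6, and Plpp1 and Plpp3, which encode phospholipid phosphatases. They were taken by gene name and make up 8 of the 54532 genes in the expression table. RNA was sequenced from heart tissue of 3 control mice (Ctrl, Mrps5 fl/fl) and 3 conditional knockout mice (cKO, Mrps5 fl/fl; MCM). All 6 mice received tamoxifen at 8 weeks of age, at 45 mg/kg/day for 5 days, and the hearts were collected 12 weeks later. The product of Mrps5 is part of the small ribosomal subunit in mitochondria. MCM is MerCreMer, a Cre recombinase that tamoxifen activates, and its αMHC promoter restricts it to cardiomyocytes, so the other cells of the heart keep Mrps5. The Ctrl mice lack the transgene, and loss of Mrps5 and presence of MerCreMer cannot be told apart. The comparison asks which genes of the LPA axis differ in expression between hearts with and without cardiomyocyte Mrps5.

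Autotaxin is a secreted enzyme that removes the choline of lysophosphatidylcholine and leaves LPA, a lipid that acts on cells as a signal. LPA binds a family of G protein-coupled receptors, with effects on cell shape, migration, survival and fibrosis. Phospholipid phosphatases sit in the plasma membrane with the active site facing outward and end the signal by removing the phosphate. Autotaxin is known for its high expression in adipose tissue and for its part in blood vessel formation in the embryo.

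Values are FPKM, which are fragments scaled by gene length and library size, so that levels of different genes can be compared. Fold changes are differences of log2(FPKM + 1), and on this scale the change of a gene at low level comes out too small. The test, by limma, took the genes whose mean FPKM reached 0.5, and an adjusted p (Benjamini-Hochberg over all genes tested) under 0.05 counted as a change. Of the 8 genes, 5 passed this filter (Enpp2, Lpar1, Lpar6, Plpp1 and Plpp3), and Lpar2, Lpar3 and Lpar4 lay below it. Enpp2 was lower in cKO, Plpp1 was higher, and the other 3 genes tested did not pass. Of all 12944 genes tested, 17.0% were lower and 16.3% were higher, so 1 call in each direction among 5 genes is near the background. The groups did not overlap for 2 of the 5 genes, Enpp2 and Plpp1, and for 51.2% of all genes tested. The median log2 fold change of the 5 genes was -0.04, against -0.02 over all genes tested.

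The libraries held between 15989322 and 24875499 reads assigned to genes. Mrps5 FPKM was 5.20, 6.45 and 6.33 in Ctrl replicates 1 to 3 and 1.12, 1.23 and 1.31 in cKO replicates 1 to 3, which left 20.4% of the Ctrl mean (log2 fold change -1.65, limma adjusted p = 0.000202). Marker genes of other cell types differed between the groups as well. The summed FPKM of 8 endothelial markers was 337 to 353 in Ctrl and 196 to 215 in cKO, with 5 of 8 lower and 0 higher. The sums also lay apart for cardiomyocyte markers (14300 to 17500 against 8230 to 14200, 5 of 8 lower), fibroblast markers (688 to 719 against 449 to 595, 1 of 8 lower and 1 higher), mural cell markers (168 to 186 against 107 to 137, 2 of 6 tested lower and 2 higher) and glial markers (3.44 to 3.65 against 1.49 to 2.36, 1 of 2 tested lower). They overlapped for macrophage (149 to 216 and 132 to 190, 1 of 6 lower), adipocyte (4.77 to 24.3 and 2.26 to 16.1, 0 of 4 tested called), mesothelial (2.13 to 7.37 and 1.74 to 5.43, 0 of 4 called), erythroid (880 to 2060 and 585 to 1590, 0 of 5 called) and lymphocyte markers (0.168 to 0.437 and 0.131 to 0.556, none tested and Ms4a1 at 0). Atrial markers summed to 992 in Ctrl replicate 1 and 737 in cKO replicate 3, against 25.2 to 221 in the other 4 hearts, and 0 of 4 were called. One heart, cKO replicate 2, showed Xist, at 10.7 FPKM, and had Ddx3y at 0. The other hearts had Ddx3y at 12.7 to 17.7 FPKM and Xist at no more than 0.127 FPKM. These genes are sex-linked, and by them cKO replicate 2 had the pattern of a female heart and the other hearts that of males. The study reports that only male mice were used. By this pattern the sexes were mixed in cKO and not in Ctrl, and a part of sex in the other values was not tested.

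Enpp2 (ENSMUSG00000022425) lies on the minus strand at chr15:54838901-54952892 of GRCm38, and its longest annotated transcript has 25 exons. Its FPKM was 2.21, 1.98 and 2.10 in Ctrl replicates 1 to 3 and 0.705, 0.697 and 1.01 in cKO replicates 1 to 3. Every cKO heart lay below every Ctrl heart, and cKO replicate 3 was the highest of its group. The reads behind these values were 244, 238 and 293 in Ctrl and 69, 94 and 147 in cKO. The mean fell from 2.10 ± 0.117 (SD, n = 3) to 0.804 ± 0.179 (SD, n = 3), which is 38.4% of the Ctrl level. The log2 fold change was -0.78 (SE 0.10, 95% interval -1.01 to -0.56, limma adjusted p = 0.00216). On the recovered reads, without the added 1, it was -1.38 by voom (adjusted p = 0.000931).

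The change of Enpp2 ranked 511th from the lowest among all genes tested, with 3.94% of genes further down. The spread among Ctrl hearts, 5.59% of the mean, was close to the 6.22% that counting alone gives at this depth. Among cKO hearts the spread was 22.3%, against 9.84% from counting. The fall was called without each heart in turn (log2 fold change -0.86 to -0.74, adjusted p at most 0.0125). Enpp2 was among the genes that the study singled out in a screen starting from these same libraries, so its direction here is not independent evidence. That screen also drew on other time points, Mrps5 knockdown and hypertrophic agonists in cardiomyocytes, pressure overload and patient hearts. The study then delivered Enpp2 to cKO hearts with a virus. It reports a modest early protection of heart function that was not maintained, and no reduction of hypertrophy.

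In the deposited FPKM, the summed levels of endothelial, cardiomyocyte, fibroblast, mural and glial markers were lower in every cKO heart than in any Ctrl heart, as Enpp2 was. For cardiomyocyte markers the gap was narrow, at 14200 in cKO replicate 2 against 14300 in Ctrl replicate 3. The deposited scaling sets cKO lower against Ctrl than scaling to assigned reads does, and the sums were not recomputed under other scalings. Their part in the fall of Enpp2 was not tested. A sum is weighted to the genes at high level. Of 8 fibroblast markers 1 was called lower and 1 higher, and of 6 tested mural markers 2 were lower and 2 higher. In bulk tissue, fewer cells of a type and less RNA per cell cannot be told apart. Adipocytes are the cell type best known for autotaxin, and the sum of their markers overlapped between the groups. It was 24.3, 4.77 and 5.91 FPKM in Ctrl replicates 1 to 3, where Enpp2 was 2.21, 1.98 and 2.10. In cKO replicates 1 to 3 it was 4.53, 2.26 and 16.1 FPKM, where Enpp2 was 0.705, 0.697 and 1.01. Within each group the adipocyte sum and Enpp2 put the hearts in the same order. Ctrl replicate 1 and cKO replicate 3, which also had the high atrial marker sums (992 and 737 FPKM), held the highest Enpp2 of their groups. Without Ctrl replicate 1 the log2 fold change of Enpp2 was -0.76 (limma adjusted p = 0.0107), and without cKO replicate 3 it was -0.86 (adjusted p = 0.00334). The part of adipose and atrial tissue in these values was not tested. The adipocyte hormone gene Lep had a mean of 0.0152 FPKM in Ctrl and was at 0 in cKO. Enpp2 shares 345 exon bases with the antisense gene Gm26684, which was listed at no more than 0.0325 FPKM in Ctrl and at 0 in cKO.

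The genes whose profile over the 6 hearts came closest to that of Enpp2, among 10454 protein-coding genes compared, were Gata2, Clcn1 and Fzd4. Distance was the root mean square difference of log2(FPKM + 1) after each gene's Ctrl mean was subtracted, and it was 0.0389, 0.0440 and 0.0460. Gata2, a zinc finger transcription factor, fell from 4.07 ± 0.238 to 1.97 ± 0.322 FPKM. Clcn1, a chloride channel gene, fell from 1.15 ± 0.0594 to 0.264 ± 0.127 FPKM. Fzd4, a Frizzled receptor for Wnt and Norrin, fell from 13.3 ± 0.191 to 7.44 ± 0.658 FPKM. All SD values are over 3 hearts, and the genes were picked for this likeness, so their changes are a description. The likeness also depends on the added 1. By voom, without it, the log2 fold change was -1.38 for Enpp2, -1.05 for Gata2, -2.14 for Clcn1 and -0.84 for Fzd4.

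**Figure D1:**
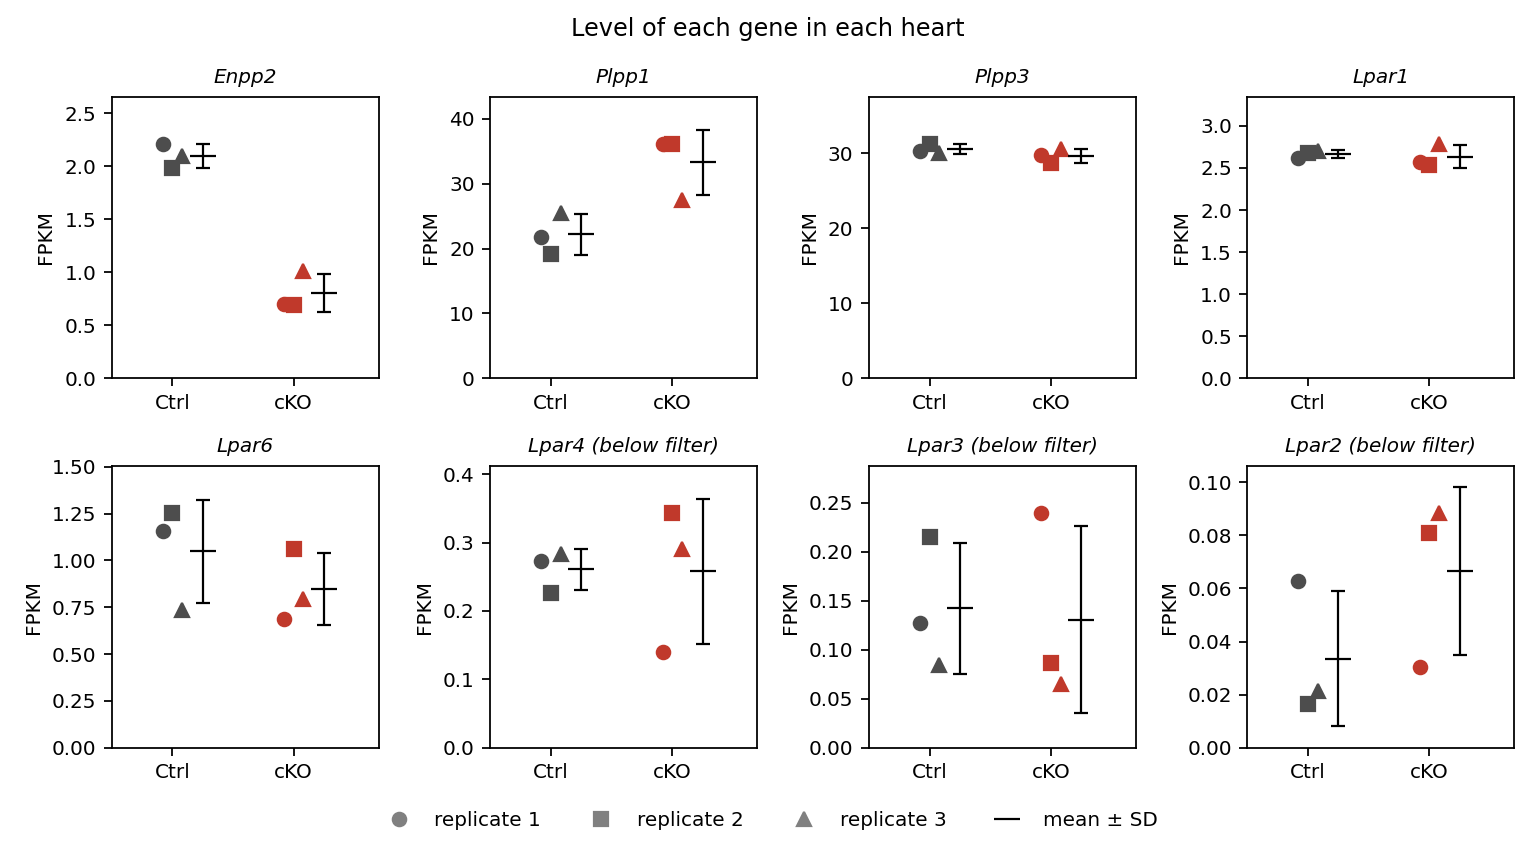
FPKM of each of the 8 genes in each heart, with 1 panel per gene, Ctrl and cKO on the horizontal axis, symbols for replicates and a bar for mean ± SD (n = 3). Enpp2 and Plpp1 are the genes above the filter whose groups do not overlap, with Enpp2 at 1.98 to 2.21 in Ctrl against 0.697 to 1.01 in cKO.

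Lpar1 was the most abundant LPA receptor transcript of the 5 in every heart. It encodes the receptor most widely tied to tissue fibrosis and lies on the minus strand at chr4:58435255-58553898. Its FPKM was 2.62, 2.68 and 2.70 in Ctrl replicates 1 to 3 and 2.58, 2.54 and 2.79 in cKO replicates 1 to 3. The groups overlapped, and cKO replicate 3 was the highest of all hearts. The means were 2.67 ± 0.0427 and 2.63 ± 0.136 (SD, n = 3), with a log2 fold change of -0.01 (SE 0.07, limma adjusted p = 0.901). The 95% interval of the difference ran from -0.17 to 0.15, and the fold change turned to 0.05 when hearts were scaled without the mtDNA-encoded genes and to 0.10 when they were scaled to assigned reads. Between 187 and 301 reads per heart were behind these values, and the spread among Ctrl hearts, 1.60%, was below the 6.40% that counting gives on average.

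Lpar6, which encodes a receptor of the P2Y-like branch of the family, was the next receptor transcript in level. The gene has a single exon on the plus strand at chr14:73237895-73243294 and lies within Rb1, which runs from 73183673 to 73325822 on the opposite strand. The RefSeq promoter table (GRCm38.p6) placed the 250 bases before its start at chr14:73237641-73237890, also inside Rb1. This window is shown because it sits in another transcribed gene; capitals mark a match to GGAATG, the motif of TEAD factors, searched on both strands, and the window had 39.2% G and C.

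Lpar6: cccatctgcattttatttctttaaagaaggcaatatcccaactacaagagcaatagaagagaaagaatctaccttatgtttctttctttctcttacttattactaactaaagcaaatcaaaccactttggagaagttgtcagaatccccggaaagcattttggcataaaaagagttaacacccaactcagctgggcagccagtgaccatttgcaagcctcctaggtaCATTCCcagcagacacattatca

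GGAATG was found in 12.6% of all 32851 RefSeq windows of this length, so a match is common. Enpp2 and Plpp1 had no window in the table and were not searched. The other 6 of the 8 genes had 1 or more, 8 windows in all, and Lpar6 held the single match. CACGTG, the E-box of bHLH factors, occurred 2 times before Lpar2, in no other of these windows and in 6.02% of all windows. TGATGNAA, the core of the amino acid response element bound by ATF4, occurred in none of them and in 3.45% of all windows.

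Lpar6 FPKM was 1.16, 1.25 and 0.735 in Ctrl replicates 1 to 3 and 0.689, 1.06 and 0.795 in cKO replicates 1 to 3. The groups overlapped, since Ctrl replicate 3 lay below 2 of the cKO hearts. On average Lpar6 stood at 1.05 ± 0.276 in Ctrl and 0.849 ± 0.193 in cKO (SD, n = 3). The log2 fold change was -0.14 (SE 0.13, 95% interval -0.45 to 0.17, limma adjusted p = 0.433). The spread, 26.4% in Ctrl and 22.7% in cKO, was above the 9.18% and 9.92% from counting. Lpar6 shares 408 exon bases with Rb1, so without strand some reads of the 2 genes cannot be told apart. Rb1 FPKM was 3.92, 4.12 and 3.72 in Ctrl and 3.47, 3.60 and 2.92 in cKO (log2 fold change -0.19, adjusted p = 0.135).

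The remaining receptor transcripts were near the limit of detection. Lpar4, on the X chromosome at chrX:106920625-106933900, had 22, 20 and 29 reads in Ctrl replicates 1 to 3 and 10, 34 and 31 in cKO replicates 1 to 3, or 0.261 ± 0.0297 and 0.258 ± 0.106 FPKM (SD, n = 3). Its highest value, 0.344 FPKM, was in cKO replicate 2, the heart with Xist. Lpar3, at chr3:146220963-146286186, had 6, 11 and 5 reads in Ctrl and 10, 5 and 4 in cKO, or 0.142 ± 0.0665 and 0.130 ± 0.0954 FPKM. Lpar2, at chr8:69822429-69831102, had 7, 2 and 3 reads in Ctrl and 3, 11 and 13 in cKO. The groups overlapped for Lpar2 too, at 0.0335 ± 0.0255 and 0.0665 ± 0.0316 FPKM. Lpar5, the LPA receptor gene outside this set, had 1, 5 and 4 reads in Ctrl and 3, 5 and 1 in cKO. When all genes with a value above 0 were tested, the adjusted p was 0.966 for Lpar4, 0.910 for Lpar3, 0.458 for Lpar2 and 0.949 for Lpar5. None of these 4 genes passed the threshold, and how large a difference this depth could show was not tested.

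Within a heart, the make-up of the receptor transcripts does not depend on how hearts are scaled. Lpar1 made up 61.8%, 61.0% and 70.6% of the summed FPKM of the 5 receptor genes in Ctrl replicates 1 to 3 and 70.1%, 61.7% and 69.2% in cKO replicates 1 to 3. The groups overlapped, and the difference was 2.55 percentage points (exact permutation test, two-sided, p = 0.8). Lpar6 made up 25.0% ± 5.07 in Ctrl and 21.4% ± 3.85 in cKO (SD, n = 3, exact permutation p = 0.3). Lpar4 held 6.33% and 6.46%, Lpar3 3.37% and 3.41%, and Lpar2 0.805% and 1.66% on average. The sum itself was 4.24, 4.39 and 3.82 FPKM in Ctrl and 3.67, 4.11 and 4.03 in cKO (exact permutation p = 0.4). Lpar1, Lpar2 and Lpar3, which belong to the Edg branch of the family, held 68.6% ± 4.10 together in Ctrl and 72.1% ± 5.89 in cKO (exact permutation p = 0.7). With 3 hearts against 3 this test cannot give a p below 0.1.

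**Figure D2:**
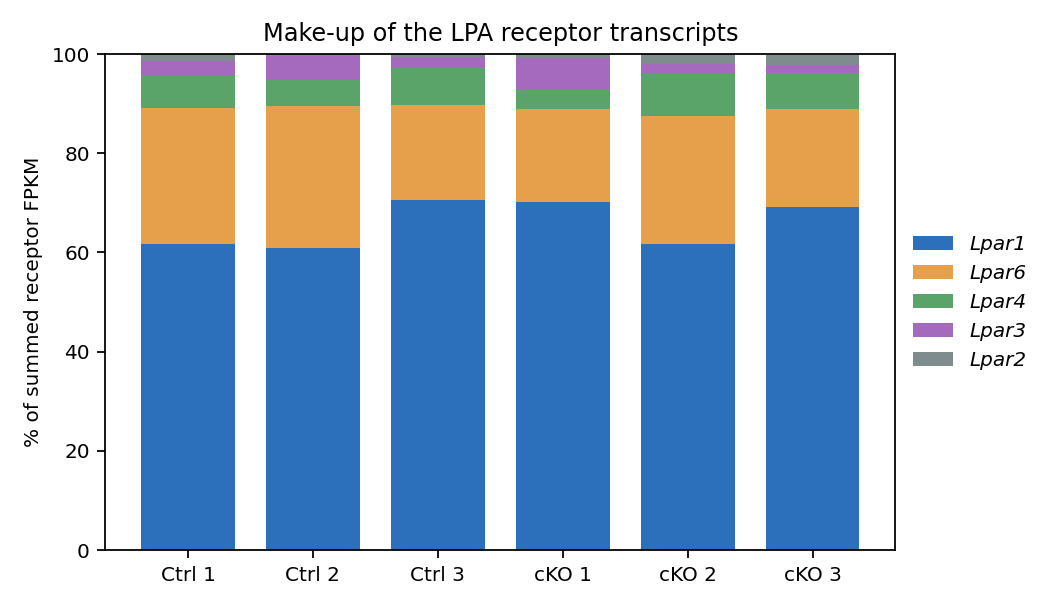
Share of each of the 5 LPA receptor genes in their summed FPKM, in percent, as 1 stacked bar per heart. Lpar1 holds 61.0% to 70.6% and Lpar6 18.8% to 28.6%, and the bars of the 2 groups overlap for every receptor.

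Plpp1 (ENSMUSG00000021759) lies on the plus strand at chr13:112800792-112867894, with 6 exons in its longest transcript. Its FPKM was 21.8, 19.2 and 25.5 in Ctrl replicates 1 to 3 and 36.2, 36.1 and 27.4 in cKO replicates 1 to 3. Every cKO heart lay above every Ctrl heart, with cKO replicate 3 the closest to Ctrl. The mean rose from 22.2 ± 3.14 to 33.2 ± 5.04 (SD, n = 3), which is 150.0% of Ctrl. The log2 fold change was 0.56 (SE 0.14, 95% interval 0.22 to 0.90, limma adjusted p = 0.0242), and 92.3% of the genes tested had a lower one. This call was lost without Ctrl replicate 1 (adjusted p = 0.0680), Ctrl replicate 2 (0.0767), cKO replicate 1 (0.0715) or cKO replicate 2 (0.0591). It was also lost when every detected gene was tested (0.0601), while the direction held in all 15 alternatives.

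Between 699 and 1477 reads per heart were assigned to Plpp1, and its spread of 14.2% in Ctrl and 15.2% in cKO was above the 3.46% and 2.83% from counting. Plpp1 shares 452 of its 1750 exon bases with Mtrex, an RNA helicase gene on the opposite strand. Without strand some reads of the 2 genes cannot be told apart. The level of Plpp1 beside other genes, in ratios and shares too, is therefore uncertain. Mtrex FPKM was 5.55, 6.13 and 5.60 in Ctrl and 6.06, 6.53 and 6.22 in cKO (adjusted p = 0.294), and its groups overlapped. The 2 hearts with high atrial marker sums had 21.8 (Ctrl replicate 1) and 27.4 FPKM of Plpp1 (cKO replicate 3), and the part of atrial tissue was not tested.

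By the distance used for Enpp2, the profiles closest to Plpp1 were those of Col5a2 (0.0587), Clic1 (0.0612) and Por (0.0913). Col5a2, a fibrillar collagen chain, went from 2.82 ± 0.504 to 4.50 ± 0.573 FPKM. Clic1, an intracellular chloride channel family gene, went from 19.9 ± 2.29 to 28.7 ± 3.44 FPKM, and Por, the cytochrome P450 reductase gene, from 18.1 ± 1.75 to 26.2 ± 1.98 FPKM.

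Plpp3, which encodes the phosphatase needed for vascular development, did not pass the test. It lies on the plus strand at chr4:105157347-105232764. Its FPKM was 30.3, 31.3 and 30.1 in Ctrl replicates 1 to 3 and 29.8, 28.7 and 30.6 in cKO replicates 1 to 3, and the groups overlapped. On average Plpp3 stood at 30.6 ± 0.637 in Ctrl and 29.7 ± 0.943 in cKO (SD, n = 3). The log2 fold change was -0.04 (SE 0.07, 95% interval -0.20 to 0.11, limma adjusted p = 0.647). Its sign turned when hearts were scaled without the mtDNA-encoded genes (0.04) and when they were scaled to assigned reads (0.10). With 1593 to 2430 reads per heart it was the most deeply read gene of the set.

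Plpp2, the remaining gene of the LPA-degrading phosphatases, is not one of the 8 but belongs to the list of LPA-converting genes. Its FPKM was 1.33, 1.22 and 1.02 in Ctrl replicates 1 to 3 and 7.14, 4.95 and 4.16 in cKO replicates 1 to 3. The groups did not overlap, and the lowest cKO heart stood above 3 times the highest Ctrl heart. The mean rose from 1.19 ± 0.156 to 5.42 ± 1.55 (SD, n = 3), with a log2 fold change of 1.52 (SE 0.17, limma adjusted p = 0.00164). The call was kept in all 15 alternatives (log2 fold change 1.34 to 2.11).

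The promoters of the phosphatase gene that rose most and of the one that did not pass are shown side by side, each as the 250 bases before the RefSeq start (GRCm38.p6), with CG dinucleotides in capitals. The window of Plpp2 is chr10:79533788-79534037 on the minus strand, and that of Plpp3 is chr4:105157097-105157346 on the plus strand.
Plpp2: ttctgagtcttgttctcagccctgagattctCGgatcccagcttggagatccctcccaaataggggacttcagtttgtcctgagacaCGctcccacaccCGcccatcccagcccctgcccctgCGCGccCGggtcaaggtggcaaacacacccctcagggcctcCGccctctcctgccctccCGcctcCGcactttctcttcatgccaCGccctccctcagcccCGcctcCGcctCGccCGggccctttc
Plpp3: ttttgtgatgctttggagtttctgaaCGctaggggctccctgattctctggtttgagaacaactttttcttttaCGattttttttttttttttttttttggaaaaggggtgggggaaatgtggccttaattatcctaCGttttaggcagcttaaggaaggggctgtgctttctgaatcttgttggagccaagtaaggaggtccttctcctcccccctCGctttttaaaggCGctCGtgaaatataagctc
The Plpp2 window held 14 CG dinucleotides and 65.6% G and C, and the Plpp3 window held 6 and 42.4%. The median over all RefSeq windows was 6 CG dinucleotides and 52.4% G and C. Neither window held any of the 3 motifs searched. The windows were chosen by the change of their genes, and Plpp1, which also rose, had no window. A link of CG content to the changes was not tested.

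The 3 phosphatase transcripts together summed to 53.5, 51.7 and 56.6 FPKM in Ctrl replicates 1 to 3 and to 73.1, 69.8 and 62.2 in cKO replicates 1 to 3. The sums did not overlap (54.0 ± 2.46 against 68.3 ± 5.61, SD, n = 3, exact permutation p = 0.1, the smallest that 3 hearts against 3 allow). Plpp3 held 56.8% ± 3.66 of the sum in Ctrl and 43.7% ± 4.77 in cKO. Plpp2 held 2.22% ± 0.361 and 7.85% ± 1.68, and Plpp1 held 41.0% ± 3.94 and 48.5% ± 3.94. The shares of Plpp2 and Plpp3 did not overlap between the groups, while those of Plpp1 did.

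**Figure D3:**
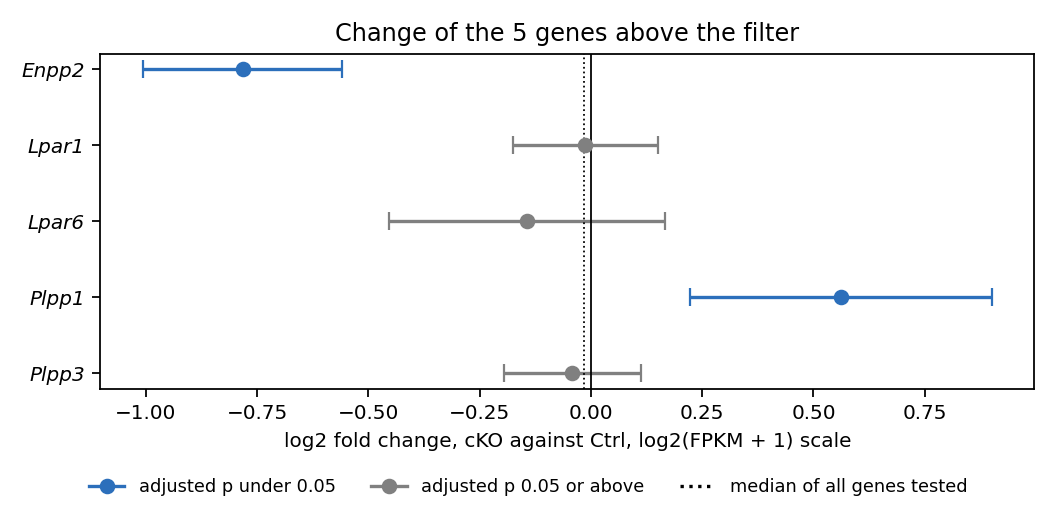
Log2 fold change of cKO against Ctrl on the log2(FPKM + 1) scale for the 5 genes above the filter, with 95% intervals as bars, a solid line at 0 and a dotted line at the median of all genes tested (-0.02). The intervals of Enpp2 (-1.01 to -0.56) and Plpp1 (0.22 to 0.90) lie on opposite sides of 0, and those of Lpar1, Lpar6 and Plpp3 include it.

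Ratios between these genes within a heart need no scaling between hearts. The ratio of Plpp3 to Enpp2 was 13.7, 15.8 and 14.4 in Ctrl replicates 1 to 3 and 42.2, 41.2 and 30.2 in cKO replicates 1 to 3. All cKO ratios lay above all Ctrl ratios, and the geometric mean went from 14.6 to 37.5 (difference 1.36 log2, exact permutation p = 0.1). The ratio of Plpp1 to Enpp2 went from 10.5 to 41.6, a difference of 1.99 log2, and that of Lpar1 to Enpp2 from 1.27 to 3.32, a difference of 1.39 log2, each without overlap (exact permutation p = 0.1). These 3 ratios share Enpp2 and restate its fall, so they are not separate results. The ratio with Plpp1 also holds the rise of Plpp1. Listed values of Plpp3 exceeded those of Plpp1 in each Ctrl heart (ratios 1.39, 1.63 and 1.18). The exon bases shared with Mtrex make the level of Plpp1 in these ratios uncertain. In cKO the ratios were 0.824, 0.794 and 1.12, so Plpp1 exceeded Plpp3 in 2 of 3 hearts (difference -0.63 log2, exact permutation p = 0.1). The ratio of Lpar1 to Lpar6 overlapped between the groups (geometric means 2.61 and 3.15, exact permutation p = 0.3).

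**Figure D4:**
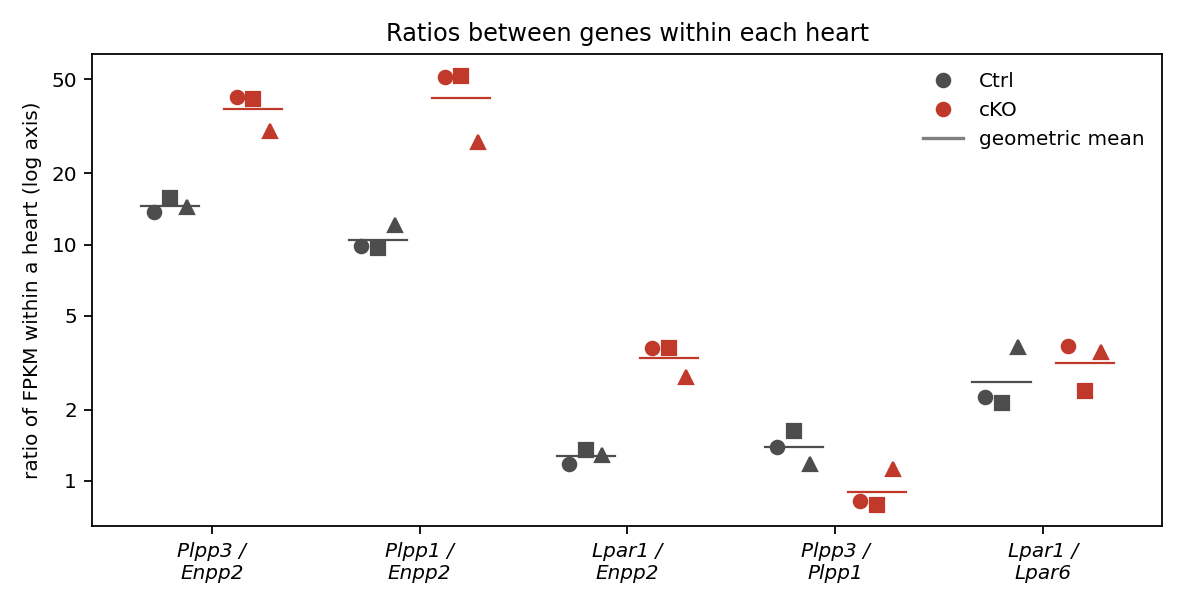
Ratios of FPKM between gene pairs within each heart on a log axis, with symbols for replicates, Ctrl in grey and cKO in red, and a line at the geometric mean. The 3 ratios over Enpp2, which share its fall, are higher in every cKO heart than in any Ctrl heart. Plpp3 over Plpp1 is lower in every cKO heart, and Lpar1 over Lpar6 overlaps.

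In Ctrl hearts the order of levels was Plpp3, Plpp1, Lpar1, Enpp2, Lpar6, Lpar4, Lpar3 and Lpar2, and no neighbours in this order had overlapping ranges. The exon bases that Plpp1 shares with Mtrex limit its place beside Plpp3. In cKO hearts Plpp1 and Plpp3 overlapped (27.4 to 36.2 and 28.7 to 30.6 FPKM), and so did Lpar6 and Enpp2 (0.689 to 1.06 and 0.697 to 1.01). Lpar4 overlapped with Lpar3, and Lpar3 with Lpar2. Enpp2 thus stood above Lpar6 in Ctrl, at 1.98 to 2.21 against 0.735 to 1.25 FPKM, and the 2 genes overlapped in cKO.

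Genes around the axis were taken from 8 lists of 63 genes, of which 55 were tested. Of these 12 were higher (21.8%) and 4 were lower (7.27%), against 16.3% and 17.0% of all genes tested, with a median log2 fold change of 0.07. The count of higher genes went down to 5 without Ctrl replicate 2 or Ctrl replicate 3, to 6 when every detected gene was tested and up to 19 when hearts were scaled to assigned reads.

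Genes of other routes to LPA included 2 higher and 1 lower of 10 tested. Gpam, which makes LPA inside the cell from glycerol 3-phosphate, fell from 53.2 ± 1.25 to 34.1 ± 5.50 FPKM (SD, n = 3, log2 fold change -0.64, limma adjusted p = 0.00886). Gdpd1, a lysophospholipase D like autotaxin in the reaction it carries out, rose from 6.41 ± 0.215 FPKM in Ctrl to 7.97 ± 0.310 FPKM in cKO (log2 fold change 0.27, adjusted p = 0.0210). The Gdpd1 call was lost without Ctrl replicate 1 (adjusted p = 0.0728), Ctrl replicate 2 (0.0707) or cKO replicate 3 (0.0689). In the list of LPA conversion and breakdown, 3 of 10 were higher and 0 lower. These included Plpp2 and the acyltransferase gene Mboat2, which went from 0.454 ± 0.0832 FPKM in Ctrl to 0.877 ± 0.0621 FPKM in cKO (log2 fold change 0.37, adjusted p = 0.0164, but 0.0586 without Ctrl replicate 3).

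Among the other members of the autotaxin family, 2 of 5 tested were lower and 0 higher. Enpp5 fell from 4.31 ± 0.163 to 2.74 ± 0.0934 FPKM (log2 fold change -0.50, limma adjusted p = 0.00289), a call kept in all 15 alternatives. Enpp3, an ectoenzyme that cleaves nucleotides, was at 0.914 ± 0.0533 and 0.599 ± 0.0595 FPKM (log2 fold change -0.26, adjusted p = 0.0412). The Enpp3 call was lost in 10 of 14 alternatives. None of the 3 receptor genes tested for sphingosine 1-phosphate, a related lysolipid, passed.

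Downstream of the receptors, 1 of 8 G protein genes was called. Gna13, which encodes a G protein alpha subunit coupled to LPA receptors, rose from 5.53 ± 0.0648 to 8.24 ± 0.406 FPKM (SD, n = 3, log2 fold change 0.50, limma adjusted p = 0.00290). The call of Gna13 was kept in all 15 alternatives.

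Of the genes of the MRTF-SRF and YAP arm, which respond to the state of actin in the cell, 4 of 11 tested were higher and 0 lower. Over all genes tested, 16.3% were higher and 17% lower. The list holds both the factors of this arm and genes that they act on, and none of the factor genes was called. Ankrd1, a stress-responsive gene of cardiomyocytes, was at 837, 573 and 300.5 FPKM in Ctrl replicates 1 to 3, and the cKO hearts had 1596, 3620.0 and 1594 FPKM (log2 fold change 2.00, limma adjusted p = 0.0156). The groups did not overlap, and the call was lost when every detected gene was tested (adjusted p = 0.0504). Ankrd1 is also known to answer to stretch and to other signals than LPA. Tagln, of the same list and of the mural markers, was listed at 0.137 and 0.218 FPKM and was not tested. It shares 1241 exon bases with the antisense gene Gm48529.

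**Figure D5:**
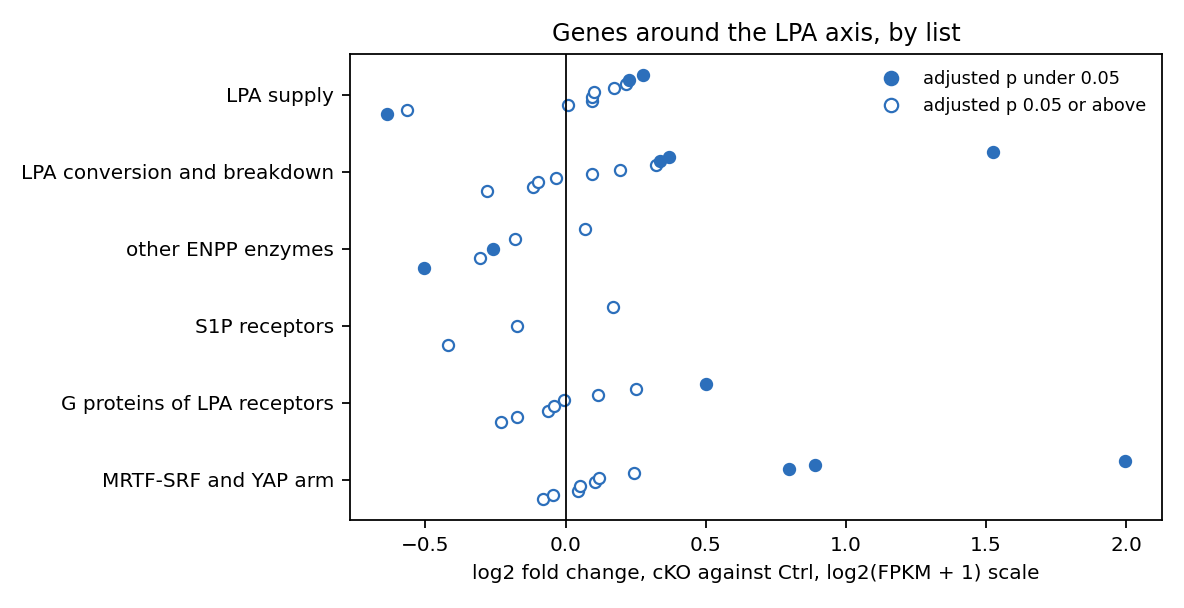
Log2 fold change of cKO against Ctrl on the log2(FPKM + 1) scale for tested genes of 6 lists around the LPA axis, 1 point per gene, filled where the adjusted p is under 0.05. Plpp2 (1.52) stands at the right of its list, and the filled points drawn for the MRTF-SRF and YAP arm lie on the higher side.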

How the data were processed

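Poly-A RNA of 6 hearts (3 Ctrl, 3 cKO) was sequenced as paired ends. The authors aligned reads with HISAT2 2.0.5, counted them with featureCounts 1.5.0-p3 and deposited FPKM values for 54532 genes, per the labels and methods. Their own test, made on counts, is not used here. The submitters' notes name mm9, but 53585 of 54495 gene identifiers shared with GENCODE release 21 had the same start and end, which places the coordinates on GRCm38. Whether counting used strand was not stated, and the kit does not mark strand. FPKM times gene length gave whole reads (within 0.1 of a read) for 100% of values.

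Genes whose mean reached 0.5 FPKM were fitted as log2(FPKM + 1) with limma 3.58.1 in R 4.3.3 (eBayes with trend, two-sided, no covariates), with Benjamini-Hochberg adjustment over 12944 genes. Values within a heart were compared by exact permutation in scipy 1.17.1. The fit was tested on simulated data. The library sizes behind the deposited FPKM were 0.9795, 0.9133 and 0.9725 times the reads assigned in Ctrl replicates 1 to 3. In cKO replicates 1 to 3 they were 1.0587, 1.0622 and 1.0592 times the reads assigned, so the groups did not overlap. Deposited cKO values are therefore lower against Ctrl than under scaling to assigned reads. The members and lists were chosen with earlier results of these data known. Named genes were all members and, in each of 8 lists, the 2 called genes that changed most; the members of 1 list and 1 further gene are counted but not reported here. Other genes were named for overlap with a member or as the 3 nearest profiles. Results were recomputed under 15 alternatives: pseudocount, filter, scaling, variance model, voom, a replicate block and each heart left out.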

Additional observations from a re-analysis of the deposited data

How the results depend on the processing

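Enpp2 kept its direction and call in all 15 alternatives (log2 fold change -1.38 to -0.70, adjusted p 0.000931 to 0.0125), and Lpar6 stayed uncalled in 14 (-0.26 to -0.07). The rise of Plpp1 kept its direction (0.47 to 0.71) but fell short of the threshold in 6. These were testing every detected gene (0.56, adjusted p = 0.0601), the replicate block (0.56, adjusted p = 0.0569) and leaving out 4 of the 6 hearts in turn (0.47 to 0.69 over all 6). In each of those 6 the number of members called higher was 0 in place of 1, so it ran from 0 to 1 with a heart left out. The sign of Lpar1 turned under median-of-ratios scaling (0.007), scaling without mtDNA genes (0.052), scaling to assigned reads (0.10) and without cKO replicate 2 (range -0.043 to 0.006 with a heart left out), and that of Plpp3 under scaling without mtDNA genes (0.044) and to assigned reads (0.10). No adjusted p of either was below 0.245.

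Scaling to assigned reads was chosen after seeing the data. It shifted the median of all genes by 0.11, and relative to that median Lpar1 and Plpp3 stood at 0.00 and 0.01, Enpp2 at -0.79 and Plpp1 at 0.61. It gave 3273 genes higher and 1381 lower (70.3% higher), scaling without mtDNA genes gave 2649 and 1621 (62.0%), and the deposited scaling gave 2110 and 2205 (48.9%). With a heart left out the counts ran from 1396 to 1977 and from 1423 to 2011. Of the genes in the lists, 12 were higher and 4 lower. These became 6 higher when every detected gene was tested, 19 higher with assigned reads, 7 lower with voom, and 5 to 10 higher and 3 to 5 lower with a heart left out.

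Same-numbered hearts deviated from their group means with r of -0.06, 0.17 and -0.01, so the numbers did not pair the hearts. With the replicate block 1874 genes were higher and 1982 lower, and Enpp2 stayed at -0.78 (adjusted p = 0.00778). The filter at a mean of 1 FPKM left no value for Lpar6. Beyond group, age and treatment, the labels give each heart only a number. The p-values rest on the spread among these 6, which limma adjusts with that of the other genes tested. Depth limits Lpar2, Lpar3, Lpar4 and Lpar5, at 1 to 34 reads per heart.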
